A study of Mus musculus with 8 samples.

Results

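The 26S proteasome is the protease that degrades ubiquitin-tagged proteins, and its subunits, activators and assembly factors are named with the prefix Psm. All gene symbols of the form Psma, Psmb, Psmc, Psmd, Psme, Psmf or Psmg followed by a number were taken, which gave 48 of 23235 symbols. Psmc3ip, which encodes a recombination factor, does not match this form. All 48 had an FPKM (fragments scaled for transcript length and for the size of the library) above 1 in at least 1 library and were tested with the 15899 genes that passed this filter. They are 7 alpha ring genes, the testis alpha gene Psma8, 7 beta ring genes, 4 inducible or tissue-specific beta genes, 6 ATPases, 14 non-ATPases, 4 activators, 1 inhibitor and 4 assembly chaperones.

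RNA was sequenced from sorted mouse spermatocytes to compare transcripts with and without CNOT4, an E3 ubiquitin ligase of the CCR4-NOT deadenylase complex, before and after entry into pachytene. The 4 groups were WT and Cnot4-null cells at the leptotene and zygotene (LZ) stage and at the pachytene and diplotene (PD) stage, with 2 libraries in each. The cells came from 6-week-old C57BL/6 males, and Cnot4-null denotes Cnot4 fl/fl;Stra8-Cre, in which Cre is made in premeiotic germ cells, and somatic cells of the testis are not targeted. The cells were collected by flow cytometry after Hoechst and propidium iodide staining, the duplicates are described as biological replicates, and the labels do not give the number of animals behind a library.

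The catalytic core of the proteasome is a barrel of alpha and beta rings, in which a few beta subunits carry the protease sites. A regulatory particle of ATPases and non-ATPase subunits caps the barrel, recognizes ubiquitin chains, and unfolds the substrate. In lymphoid and cytokine-treated cells inducible beta subunits replace the constitutive ones, and in spermatocytes PSMA8 takes the place of PSMA7 in the alpha ring, while the activator PA200, encoded by Psme4, is abundant in testis and is known for its binding to acetylated histones.

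Cnot4 itself had an FPKM of 36.0 and 34.9 in WT LZ, 76.6 and 73.1 in WT PD, 43.2 and 34.6 in Cnot4-null LZ, and 65.9 and 53.5 in Cnot4-null PD. The PD libraries of both genotypes lay above the LZ libraries, and the Cnot4-null PD values lay below the WT PD values with no overlap, but the difference was not called (log2 fold change -0.33 ± 0.20, adjusted p = 0.192). With the same median in every library it was called lower (-0.75, adjusted p = 0.00579), as was its interaction of genotype and stage (-0.89, adjusted p = 0.0219), and in the other alternatives neither was called. The deletion removes exon 2, and 1 FPKM value per gene cannot show whether that exon was present, so these values do not check the genotype labels. The files hold FPKM and no read counts, and summed FPKM per library ranged from 676452 in Cnot4-null PD replicate 2 to 893372 in Cnot4-null PD replicate 1.

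The stage labels were compared with marker genes. The 5 of 6 leptotene and zygotene markers found (Stra8, Prdm9, Dmc1, Rec8 and Sycp1) summed to 898 and 865 FPKM in WT LZ, 123 and 121 in WT PD, 1541 and 948 in Cnot4-null LZ, and 397 and 294 in Cnot4-null PD. The 8 pachytene and diplotene markers, led by Ldhc in 7 libraries and by Hspa2 in Cnot4-null LZ replicate 2, summed to 234 and 341 in WT LZ, 12176 and 11287 in WT PD, 255 and 94.9 in Cnot4-null LZ, and 5608 and 1959 in Cnot4-null PD. Both lists separated LZ from PD libraries in each genotype. At PD, 4 of the 5 early markers were called higher in Cnot4-null than in WT and 2 of the 8 late markers, Adam3 and Hspa2, were called lower.

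Each difference below is a log2 fold change of FPKM + 1 with its standard error, from a limma model of the 4 groups, and a gene is said to be called, or to have risen or fallen, at a Benjamini-Hochberg adjusted p under 0.05 over all 15899 genes. The scale understates the change of genes with low FPKM. With duplicates, the p-values measure the spread between 2 libraries of a group pooled over the 4 groups.

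In WT cells the proteasome genes fell more than they rose from LZ to PD. Of the 48 genes, 27 were called lower in PD (56.3%), against 36.2% of all genes tested, and 7 were called higher (14.6%), against 21.6% of all genes. The median log2 fold change was -0.86 over the 48 and -0.32 over all genes tested. The 7 genes that rose were Psma8, Psmc2, Psmc3, Psmd7, Psmd8, Psme4 and Psmf1. With each library left out in turn, 20 of the 27 falls and 2 of the 7 rises, those of Psma8 and Psme4, kept their call. In all alternatives the share of the 48 called lower was above that of all genes and the share called higher below it. The number called higher was 3 without WT LZ replicate 1, 4 without WT LZ replicate 2, 2 without WT PD replicate 1, and 5 without WT PD replicate 2.

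In Cnot4-null cells 18 of the 48 genes were called lower in PD than in LZ (37.5%), against 18.2% of all genes, and 4 were called higher (8.33%), against 27.8% of all genes. The medians were -0.43 over the 48 and 0.19 over all genes. Relative to the median of all genes, the median of the 48 was lower by 0.54 in WT and by 0.62 in Cnot4-null. These margins depend on the filter, the pseudocount and the scaling. They were 0.86 and 0.43 with no filter, 0.45 and 0.29 with a mean FPKM of at least 5, 0.34 and 0.66 with a pseudocount of 0.1, 1.07 and 0.23 with quantile normalization, 0.35 and 0.63 with the same median, and 0.63 in both with the same summed FPKM. In Cnot4-null the margin was 0.90 without Cnot4-null PD replicate 1 and 0.36 without replicate 2. The genes that rose were Psma8, Psmb8, Psmb9 and Psmf1. With each library left out in turn, 5 of the 18 falls (Psma1, Psmc6, Psmd5, Psmd11 and Psmd14) and 3 of the 4 rises kept their call, and with only the libraries compared the counts higher and lower were 2 and 4 (4.17% and 8.33%, against 16.9% and 7.94% of all genes). In all alternatives the share called lower was above that of all genes and the share called higher below it, but with only the libraries compared the shares called lower were nearly equal. The falls were 7 and 9 without Cnot4-null LZ replicates 1 and 2, 11 without WT PD replicate 1 and also without WT PD replicate 2, 13 without either WT LZ library or without Cnot4-null PD replicate 2, and 27 without Cnot4-null PD replicate 1, and the rises were 8 without Cnot4-null PD replicate 2.

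At LZ the genotypes were not distinguished in any of the 48 genes. Limma called 0 higher and 0 lower, against 0.0692% and 0.0252% of all genes, and an unadjusted p under 0.05 was found for 0 of the 48 and for 1013 of all genes. Their log2 fold changes had a median of 0.03, beside 0.00 over all genes, and lay between -0.39 (Psmb3) and 0.56 (Psmb9).

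At PD, 14 of the 48 were called higher in Cnot4-null than in WT (29.2%), against 41.6% of all genes, and 4 were called lower (8.33%), against 11.5%. Of all genes tested 10.8% were above 1 FPKM in Cnot4-null PD alone, among them none of the 48, and such genes passed the filter only where they were high. The median log2 fold change was 0.17 over the 48 and 0.66 over all genes, a difference of -0.49. The scaling between libraries bears on this comparison, up to its direction. With every library set to the same median over genes above 1 FPKM in all libraries, the counts became 9 higher and 13 lower (18.8% and 27.1%, against 34.7% and 22.8% of all genes), with a median of -0.26 over the 48 and 0.42 over all genes. With the same summed FPKM they were 17 and 7 (35.4% and 14.6%, against 42.1% and 11.5%), with medians of 0.30 and 0.73. With quantile normalization they were 19 and 6 (39.6% and 12.5%, against 17.8% and 25.6%), with medians of 0.40 and -0.10, so that here the 48 lay above all genes by 0.50. Without Cnot4-null PD replicate 1 the difference was -0.70, and without replicate 2 it was -0.14. It was 0.00 with no filter, -0.21 with a mean FPKM of at least 5, and -0.83 with a pseudocount of 0.1. The 7 genes called higher under every scaling were Psma7, Psmb8, Psmb9, Psmb10, Psme1, Psme2 and Psme3, and the 4 called lower were Psma8, Psmd6, Psmd8 and Psme4.

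In the 48 genes the Cnot4-null PD libraries differed from each other more than other duplicates did. Replicate 1 was above replicate 2 in 39 of the 48, with a median log2 difference of 0.50, beside -0.04 in WT LZ, 0.11 in WT PD and 0.20 in Cnot4-null LZ. Over all genes tested these medians were 0.06 in Cnot4-null PD, 0.01 in WT LZ and WT PD, and 0.10 in Cnot4-null LZ. The PD counts higher and lower were 12 and 8 (25.0% and 16.7%, against 44.5% and 18.1% of all genes) without Cnot4-null PD replicate 1. Without replicate 2 they were 19 and 1 (39.6% and 2.08%, against 39.1% and 6.89% of all genes), where the share called higher no longer lay below that of all genes. Without WT PD replicate 1 they were 9 and 1 (18.8% and 2.08%, against 24.3% and 2.96% of all genes), and without WT PD replicate 2 they were 8 and 1 (16.7% and 2.08%, against 22.9% and 2.59% of all genes). With either WT LZ library left out they were 13 and 1, and with either Cnot4-null LZ library left out 11 and 2, with shares of all genes from 38.2% to 39.3% higher. In each of these fits with a library left out, the share of the 48 called lower was below that of all genes. With no filter the PD counts were 13 and 1 (27.1% and 2.08%, against 25.1% and 5.53% of all genes). With only the libraries compared they were 10 and 1 (20.8% and 2.08%, against 32.6% and 5.67% of all genes). The WT stage comparison and the genotype comparison at PD share the WT PD libraries, and their values are given side by side.

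The interaction of genotype and stage, which tests whether the stage change differs between the genotypes, was called higher in 10 of the 48 genes (20.8%), against 26.0% of all genes, and lower in 1 (2.08%), against 3.97%. The medians were 0.15 over the 48 and 0.64 over all genes. The order of these shares depends on the model. The counts higher and lower were 9 and 8 (18.8% and 16.7%, against 20.6% and 11.97% of all genes) with the same median. With quantile normalization they were 12 and 1 (25.0% and 2.08%, against 9.74% and 12.4% of all genes), and with the same summed FPKM 15 and 2 (31.2% and 4.17%, against 26.0% and 4.39% of all genes). With no filter they were 4 and 0 (8.33% and 0%, against 12.8% and 1.69% of all genes), and with a replicate block 12 and 2 (25.0% and 4.17%, against 23.7% and 3.70% of all genes). With a mean FPKM of at least 5, which leaves out Psmb8, Psmb9 and Psmb11, they were 8 and 1 (17.8% and 2.22%, against 29.7% and 6.01% of all genes). The difference of the medians was -0.49, and became 0.58 with quantile normalization, -0.01 with no filter, -0.26 with a mean FPKM of at least 5, -0.84 with a pseudocount of 0.1, -0.75 without Cnot4-null PD replicate 1 and -0.18 without replicate 2. Without Cnot4-null PD replicate 1 the counts were 11 and 9 (22.9% and 18.8%, against 36.8% and 13.0% of all genes). They were 5 and 0 (10.4% and 0%, against 10.7% and 0.453% of all genes) without WT PD replicate 1 and 4 and 0 (8.33% and 0%, against 10.1% and 0.333% of all genes) without WT PD replicate 2. Without WT LZ replicate 1 or Cnot4-null LZ replicate 2 they were 6 and 0 (against 15.2% and 13.3% of all genes higher), and without WT LZ replicate 2 or Cnot4-null LZ replicate 1 they were 7 and 0 (against 18.2% and 16.1%). The calls of Psma7, Psme1, Psme2 and Psme3 held with each library left out in turn.

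**Figure D1:**
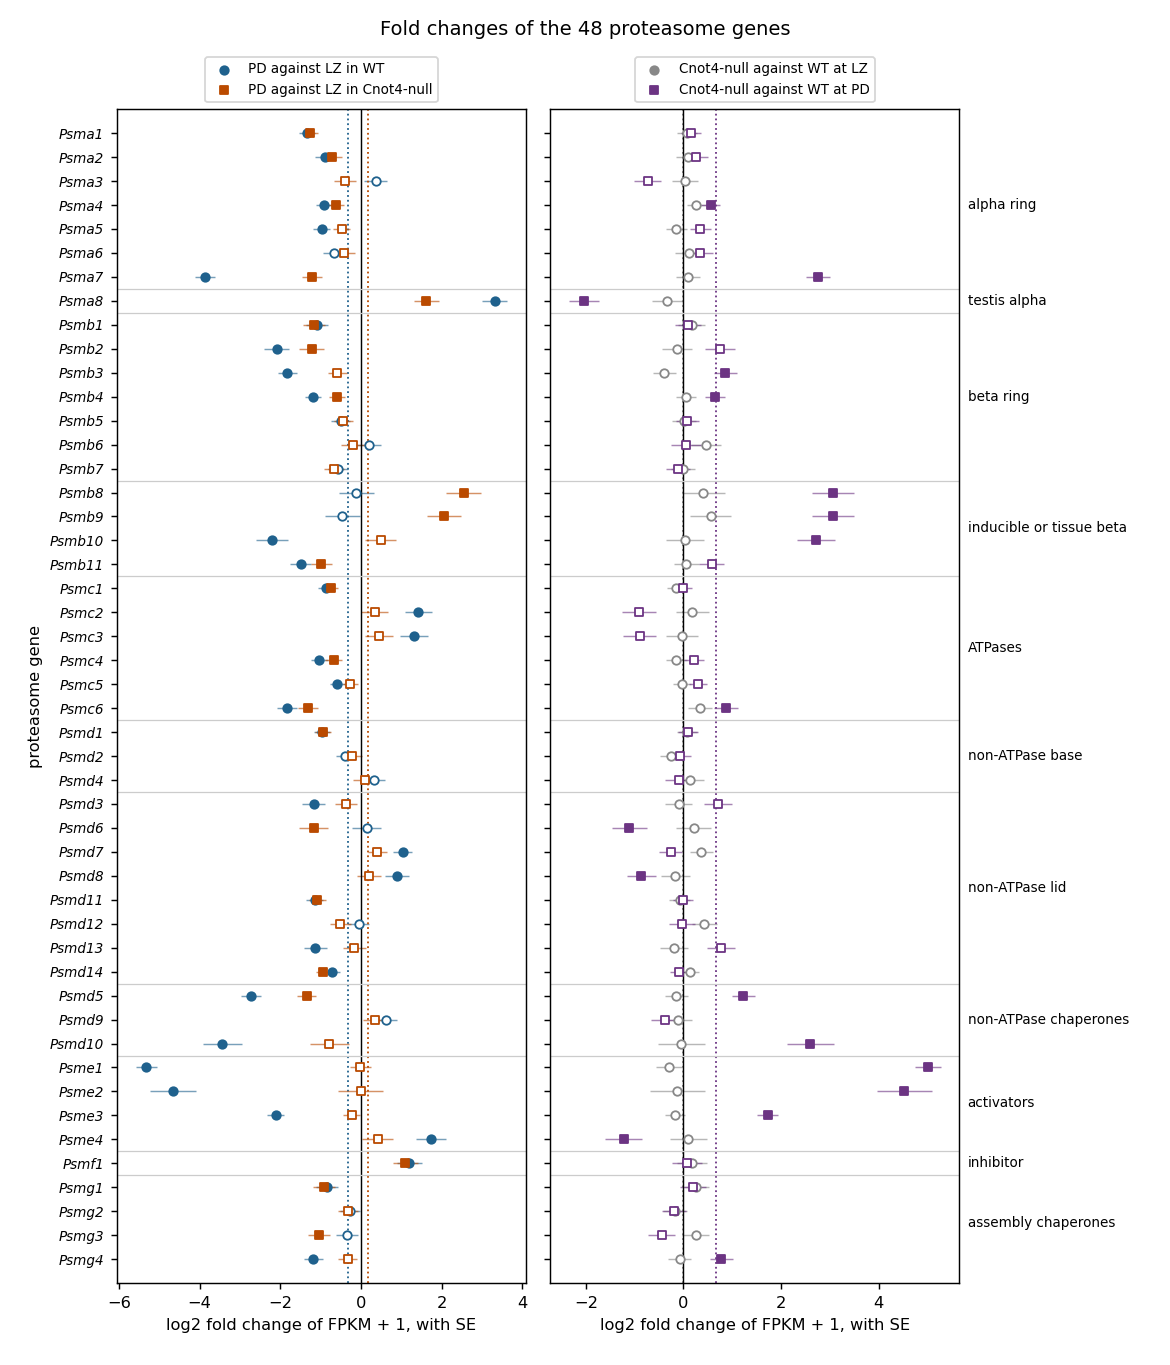
Log2 fold changes of the 48 genes, by class, with standard errors. The left panel shows PD against LZ in WT (circles) and Cnot4-null (squares), and the right panel Cnot4-null against WT at LZ (circles) and PD (squares). Filled symbols were called, and dotted lines mark the median of all genes tested (-0.32 and 0.19 on the left, 0.00 and 0.66 on the right). Psme1, Psme2 and Psma7 lie far to the left in WT and far to the right at PD.

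Psma7 and Psma8 encode alternative subunits at the same position of the alpha ring. Psma7 lies at chr2:179771078-179777138 on the minus strand of mm9. Its FPKM was 511 and 414 in WT LZ, 33.5 and 27.9 in WT PD, 558 and 433 in Cnot4-null LZ, and 254 and 178 in Cnot4-null PD. Values were high in all LZ libraries of both genotypes, lowest in WT PD and in between in Cnot4-null PD, and the Cnot4-null PD and WT PD libraries did not overlap. Psma7 fell in both genotypes (log2 fold change -3.87 ± 0.25, adjusted p = 3.19e-05 in WT and log2 fold change -1.21 ± 0.25, adjusted p = 0.00769 in Cnot4-null) and was higher in Cnot4-null than in WT at PD (log2 fold change 2.76 ± 0.25, adjusted p = 0.000299). The call of its fall in Cnot4-null was lost with only the libraries compared (log2 fold change -1.21, adjusted p = 0.0534) and without Cnot4-null LZ replicate 1 (log2 fold change -1.03, adjusted p = 0.0595). The interaction was called for Psma7 (log2 fold change 2.66 ± 0.36, adjusted p = 0.0031).

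Psma8 took the opposite course, with FPKM of 27.1 and 32.0 in WT LZ, 312 and 294 in WT PD, 21.8 and 24.8 in Cnot4-null LZ, and 102 and 52.2 in Cnot4-null PD. WT PD libraries were the highest, Cnot4-null PD libraries lay between them and the LZ libraries, and the 3 ranges did not overlap. The summed pachytene and diplotene markers lay in the same order, and their part in this result was not tested. Psma8 rose in WT (log2 fold change 3.32 ± 0.31, adjusted p = 0.000108) and in Cnot4-null (log2 fold change 1.61 ± 0.31, adjusted p = 0.0054) and was lower in Cnot4-null at PD (log2 fold change -2.03 ± 0.31, adjusted p = 0.00197). These calls held with each library left out. The interaction was called (log2 fold change -1.71 ± 0.44, adjusted p = 0.0268), but this call was lost with no filter (log2 fold change -1.71, adjusted p = 0.0783) and with each library but Cnot4-null PD replicate 1 and Cnot4-null PD replicate 2 left out in turn (log2 fold change from -1.82 to -1.59, adjusted p from 0.0639 to 0.101).

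A share within a library does not depend on the scaling between libraries. Of the summed FPKM of Psma7 and Psma8, Psma8 made up 5.03 and 7.18 percent in WT LZ, 90.3 and 91.3 in WT PD, 3.76 and 5.42 in Cnot4-null LZ, and 28.7 and 22.7 in Cnot4-null PD. In WT PD nearly the whole sum came from Psma8, whereas in Cnot4-null PD Psma7 remained the larger part in both libraries. The LZ and PD ranges did not overlap in either genotype, nor did the genotypes at PD, whereas the genotypes overlapped at LZ. The exact two-sided permutation test gave p = 0.333 for each stage comparison and for the genotypes at PD, the smallest p that 2 libraries against 2 allow. The sum itself was 538 and 446 FPKM in WT LZ, 345 and 322 in WT PD, 579 and 458 in Cnot4-null LZ, and 356 and 229.7 in Cnot4-null PD, and at PD the Cnot4-null libraries lay on either side of the WT libraries.

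**Figure D2:**
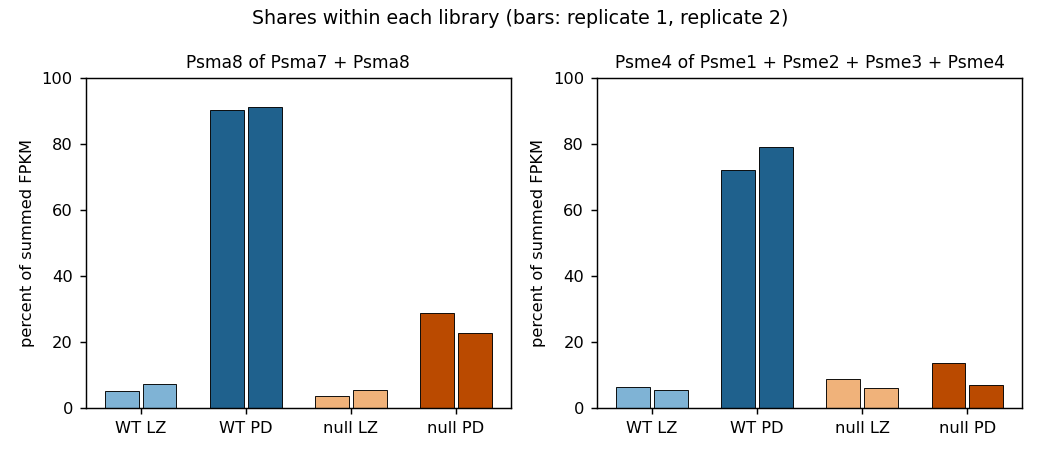
Shares of FPKM within each library, in percent. Left, Psma8 as a share of Psma7 plus Psma8; right, Psme4 as a share of the 4 activators. Each bar is 1 library. WT PD stands at 90.3 and 91.3 percent on the left and 72.2 and 79.3 percent on the right, and the highest Cnot4-null PD bars are 28.7 and 13.7 percent.

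The other 6 alpha ring genes varied less. Their median FPKM per library was 346 and 369.5 in WT LZ, 224 and 221 in WT PD, 413 and 345 in Cnot4-null LZ, and 323 and 199 in Cnot4-null PD. The medians were lower in every PD library than in every LZ library, and the Cnot4-null PD libraries lay above and below the WT PD pair. Relative to this median, Psma7 stood at 148 and 112 percent in WT LZ, 14.9 and 12.6 in WT PD, 135 and 126 in Cnot4-null LZ, and 78.5 and 89.1 in Cnot4-null PD. Psma8 stood at 7.82 and 8.66 percent in WT LZ, 139 and 133 in WT PD, 5.27 and 7.19 in Cnot4-null LZ, and 31.7 and 26.2 in Cnot4-null PD. On this per-length scale Psma8 in WT PD exceeded the median alpha gene, and in Cnot4-null PD neither Psma7 nor Psma8 reached it. In WT, 5 of the 7 alpha ring genes fell and 0 rose, against 36.2% and 21.6% of all genes. The 5 were Psma1, Psma2, Psma4, Psma5 and Psma7. The number of alternatives in which such a call was lost was 4 for Psma2 and 0 for the others. Psma3 gained a call in 4, as a rise (log2 fold change from 0.36 to 0.75), and Psma6 in 5, as a fall. At PD, Psma4 and Psma7 were called higher in Cnot4-null, and the other 5 were not called. Of all genes 41.6% were called higher there and 11.5% lower. Psma2, Psma5 and Psma6 were called higher with quantile normalization and without Cnot4-null PD replicate 2, and Psma5 also with the same summed FPKM. Psma4 (log2 fold change 0.56 ± 0.19, adjusted p = 0.045) lost its call with the same median, no trend or only the libraries compared (log2 fold change from 0.13 to 0.56, adjusted p from 0.0688 to 0.459) and with each library but Cnot4-null PD replicate 2 left out in turn (log2 fold change from 0.46 to 0.58, adjusted p from 0.061 to 0.173). Psma3, with the lowest log2 fold change of these 7 between the genotypes at PD, had FPKM of 309 and 336 in WT LZ, 407 and 421 in WT PD, 356 and 304 in Cnot4-null LZ, and 327 and 189 in Cnot4-null PD, with Cnot4-null PD replicate 2 lowest. It was not called (log2 fold change -0.73 ± 0.27, adjusted p = 0.0557), but was called lower with the same median (-1.16, adjusted p = 0.00384), with the same summed FPKM (-0.61, adjusted p = 0.0209), and without Cnot4-null PD replicate 1 (-1.13, adjusted p = 0.00315).

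The beta ring genes, which include the 3 protease subunits Psmb5, Psmb6 and Psmb7, were among the most abundant members. Their median FPKM per library was 491 and 518 in WT LZ, 286 and 291 in WT PD, 556 and 493 in Cnot4-null LZ, and 391 and 256 in Cnot4-null PD. In WT, Psmb1, Psmb2, Psmb3 and Psmb4 fell, and the protease subunits Psmb5, Psmb6 and Psmb7 were not called in any of the 4 comparisons. This depended on the model. In WT, Psmb5 and Psmb7 were called lower with quantile normalization, with the same summed FPKM, with only the libraries compared, and without either Cnot4-null PD library. In Cnot4-null all 3 were called lower without Cnot4-null PD replicate 1, Psmb5 and Psmb7 with quantile normalization, and Psmb7 also with the other 2 scalings and a replicate block. At PD, Psmb7 was called lower with the same median (-0.54, adjusted p = 0.0378), Psmb5 and Psmb6 higher with quantile normalization (0.48 and 0.43), and Psmb5 higher without Cnot4-null PD replicate 2 (0.41, adjusted p = 0.029). In Cnot4-null, Psmb1, Psmb2 and Psmb4 fell. The WT call was lost in 2 alternatives for Psmb1, and the Cnot4-null calls in 2 for Psmb1, 3 for Psmb2 and 8 for Psmb4, while Psmb3 gained one in 5. At PD 6 of the 7 beta ring genes were called higher with quantile normalization, 3 with the same summed FPKM and 0 with the same median, where 1 was called lower. Of all genes 17.8%, 42.1% and 34.7% were then called higher, and 22.8% lower with the same median. At PD the highest log2 fold change was that of Psmb3 and the lowest that of Psmb7. Psmb3, a structural subunit, had FPKM of 539.6 and 517 in WT LZ, 159 and 138 in WT PD, 429 and 377 in Cnot4-null LZ, and 327 and 219 in Cnot4-null PD. WT PD was lowest, and the genotypes did not overlap at PD. It fell in WT (log2 fold change -1.83 ± 0.23, adjusted p = 0.000437) and was higher in Cnot4-null at PD (log2 fold change 0.85 ± 0.23, adjusted p = 0.0198), a call lost with the same median or only the libraries compared (log2 fold change from 0.42 to 0.85, adjusted p from 0.0675 to 0.0896) and without WT PD replicate 1 or WT PD replicate 2 (log2 fold change from 0.75 to 0.95, adjusted p from 0.0696 to 0.120). Psmb7 had FPKM of 485 and 528 in WT LZ, 360.2 and 320.5 in WT PD, 556 and 451 in Cnot4-null LZ, and 389 and 256 in Cnot4-null PD. At PD the Cnot4-null libraries lay above and below the WT libraries (log2 fold change -0.11 ± 0.25, adjusted p = 0.732). Psmb4 was also called higher at PD (log2 fold change 0.64 ± 0.20, adjusted p = 0.0302), and lost the call with the same median or only the libraries compared (log2 fold change from 0.21 to 0.64, adjusted p from 0.119 to 0.233) and with each library but Cnot4-null PD replicate 1 and Cnot4-null PD replicate 2 left out in turn (log2 fold change from 0.59 to 0.69, adjusted p from 0.0508 to 0.148).

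The inducible beta genes Psmb8, Psmb9 and Psmb10 encode the immunoproteasome counterparts of Psmb5, Psmb6 and Psmb7. Psmb8 and Psmb9 neighbour each other in the major histocompatibility complex, at chr17:34334666-34338399 and chr17:34318933-34324709 of mm9. Psmb8 had an FPKM of 0.305 and 0 in WT LZ, 0 and 0.115 in WT PD, 1.31 and 0 in Cnot4-null LZ, and 6.24 and 9.83 in Cnot4-null PD. For Psmb9 the values were 0.517 and 0.244 in WT LZ, 0 and 0 in WT PD, 0.276 and 2.2 in Cnot4-null LZ, and 7.22 and 7.53 in Cnot4-null PD, where a value of 0 is as listed in the files. Both were highest in the Cnot4-null PD libraries, with no overlap with another group, and Psmb9 was at 0 throughout WT PD. Values above 1 FPKM, which the filter asks for, were in Cnot4-null libraries only, 1 of LZ and both of PD for each gene. Psmb10 had FPKM of 23.1 and 11.0 in WT LZ, 3.60 and 1.98 in WT PD, 19.7 and 13.5 in Cnot4-null LZ, and 21.2 and 25.5 in Cnot4-null PD. WT PD was low for Psmb10, and the other 3 groups were close to each other, with Cnot4-null PD and WT LZ overlapping.

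At PD Psmb10 (log2 fold change 2.71 ± 0.39, adjusted p = 0.00161) was called higher in Cnot4-null, as were Psmb8 and Psmb9 (adjusted p = 0.00147 and 0.00134), for which no fold is given because WT PD libraries were listed at 0. Without these 2, the genes called higher at PD are 12, and 5 of them under every scaling. These calls held with each library left out, but Psmb8 and Psmb9 could not be tested with a mean FPKM of at least 5. From LZ to PD, Psmb8 and Psmb9 rose in Cnot4-null (adjusted p = 0.00342 and 0.00741) and Psmb10 fell in WT (log2 fold change -2.20 ± 0.39, adjusted p = 0.0022). The rise of Psmb9 was lost with only the libraries compared (log2 fold change 2.05, adjusted p = 0.058). Even in Cnot4-null PD the inducible genes remained far below the constitutive ones. Psmb8 came to 1.62 and 4.06 percent of Psmb5 there, Psmb9 to 1.09 and 2.16 percent of Psmb6, and Psmb10 to 5.47 and 9.97 percent of Psmb7. All 3 ratios were higher in replicate 2. Psmb11, the thymus-specific beta subunit, had FPKM of 5.85 and 4.04 in WT LZ, 0.95 and 1.22 in WT PD, 5.31 and 4.95 in Cnot4-null LZ, and 2.15 and 2.06 in Cnot4-null PD. It fell in both genotypes (log2 fold change -1.50 ± 0.26, adjusted p = 0.00206 in WT and log2 fold change -0.98 ± 0.26, adjusted p = 0.0201 in Cnot4-null) and was not called at PD (adjusted p = 0.101). The fall in WT was lost with quantile normalization (log2 fold change -0.73, adjusted p = 0.0596). That in Cnot4-null was lost with only the libraries compared (log2 fold change -0.98, adjusted p = 0.0846) and without Cnot4-null LZ replicate 1, Cnot4-null LZ replicate 2, WT PD replicate 1 or WT PD replicate 2 (log2 fold change from -1.02 to -0.94, adjusted p from 0.0519 to 0.0841). With quantile normalization Psmb11 was called lower in Cnot4-null at PD, the reverse direction (log2 fold change -0.91).

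Markers of other testis cells moved with these genes, and their part in the results was not tested. Of the 6 Leydig markers, Hsd3b1 and Lhcgr were above 1 FPKM in Cnot4-null PD alone and so passed the filter only where they were high, and the other 4 were called higher in Cnot4-null than in WT at PD. Their summed FPKM was 16.8 and 9.89 in WT LZ, 115 and 7.07 in WT PD, 10.8 and 19.0 in Cnot4-null LZ, and 10021 and 22204 in Cnot4-null PD, with Insl3 the most abundant in every library and at 9669 and 21608 in Cnot4-null PD. Lhcgr was listed at 0 in all LZ libraries and in WT PD replicate 2. Cyp17a1 and Cyp11a1 were listed at 0 in WT LZ replicate 2 and WT PD replicate 2, Cyp17a1 and Hsd3b1 in Cnot4-null LZ replicate 1, and Cyp11a1 in Cnot4-null LZ replicate 2. The WT PD libraries differed, with 4 and 2 of the 6 markers above 1 FPKM. No Leydig marker was at 0 in Cnot4-null PD.

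Of the 7 macrophage markers, Emr1, Csf1r and Ptprc were above 1 FPKM in Cnot4-null PD alone, and of the other 4, Cd68 and C1qa were called higher at PD. The sum over the 7 was 26.9 and 1.03 FPKM in WT LZ, 2.33 and 2.91 in WT PD, 6.65 and 4.38 in Cnot4-null LZ, and 21.4 and 97.3 in Cnot4-null PD, with Lyz2 the most abundant in Cnot4-null PD. C1qa was at 0 throughout WT PD, Cd68 in replicate 1 and Csf1r in replicate 2, and 1 and 2 of the 7 were above 1 FPKM there. Emr1, Csf1r, Lyz2, C1qa and Ptprc were at 0 in WT LZ replicate 2, and all of these but Ptprc in Cnot4-null LZ replicate 2. Of the 5 peritubular and endothelial markers, Myh11, Des and Cdh5 were above 1 FPKM in Cnot4-null PD alone, Pecam1 was not tested, and Acta2 was called higher, with sums of 0.615 and 0.787 in WT LZ, 1.31 and 1.08 in WT PD, 0.681 and 0.397 in Cnot4-null LZ, and 48.8 and 242 in Cnot4-null PD and Acta2 leading in PD. Replicate 2 of Cnot4-null PD had the higher sum for each of these lists, as it had the higher Psmb8, Psmb9 and Psmb10. Each LZ and WT PD library had at least 1 of these 5 listed at 0 (Pecam1 in WT PD replicate 1, Myh11, Des and Cdh5 in replicate 2), and Cnot4-null PD had none. Of 6 Sertoli markers, 4 were tested. Gata1 was above 1 FPKM in Cnot4-null PD alone, and of the other 3, Clu and Wt1 were called higher at PD, with sums of 58.3 and 50.5 in WT LZ, 8.41 and 15.8 in WT PD, 5.67 and 8.27 in Cnot4-null LZ, and 97.0 and 200.1 in Cnot4-null PD. Clu led the Sertoli list in every library, Amh was listed at 0 in all libraries but Cnot4-null PD replicate 2, and Gata1 in WT LZ replicate 1, WT PD replicate 2 and Cnot4-null LZ replicate 1. The libraries are described as spermatocytes collected by flow cytometry, a sort meant to leave out somatic cells.

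Germ cell markers of other stages moved too. All 5 spermatogonial markers were called higher in Cnot4-null at PD, and their sums were 637 and 612 FPKM in WT LZ, 14.0 and 8.13 in WT PD, 408 and 572 in Cnot4-null LZ, and 272 and 384 in Cnot4-null PD, with Uchl1 the most abundant in every library. All 5 spermatid markers were called higher, with sums of 1825 and 1493 in WT LZ, 397 and 248 in WT PD, 4025 and 701 in Cnot4-null LZ, and 15665 and 7045 in Cnot4-null PD and Prm1 or Prm2 leading in every library. No gene of these 2 lists was listed at 0. The spermatogonial list separated WT PD from the other 3 groups, as Psma7 and Psme1 to Psme3 did, and its part in those results was not tested. In these samples fewer cells of a type and less RNA per cell cannot be told apart.

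**Figure D3:**
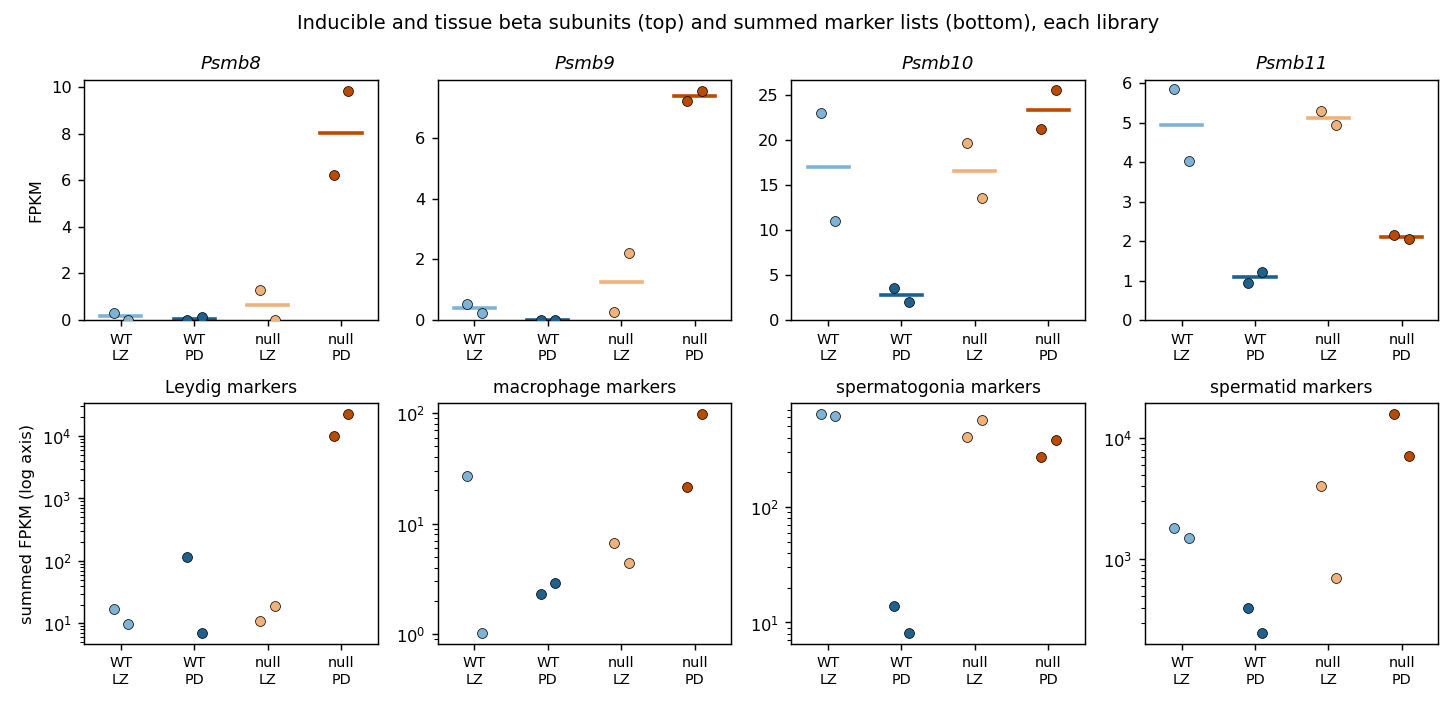
FPKM of Psmb8, Psmb9, Psmb10 and Psmb11 (top, linear axes, points for libraries and lines for means of 2) and summed FPKM of 4 marker lists (bottom, log axes). The Cnot4-null PD libraries are the highest for Psmb8 (6.24 and 9.83), Psmb9 (7.22 and 7.53) and the Leydig list (10021 and 22204), and WT PD is the lowest for the spermatogonial list (14.0 and 8.13).

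The 6 ATPases, which form the ring that unfolds substrates and opens the core, split in WT. Psmc1, Psmc4, Psmc5 and Psmc6 fell and Psmc2 and Psmc3 rose. The fall of Psmc5 (log2 fold change -0.59 ± 0.19, adjusted p = 0.0302) was lost with the same median or no trend (log2 fold change from -0.59 to -0.20, adjusted p from 0.0554 to 0.358) and with each library but WT LZ replicate 1, Cnot4-null PD replicate 1 and Cnot4-null PD replicate 2 left out in turn (log2 fold change from -0.68 to -0.46, adjusted p from 0.05 to 0.167). The ratio of the highest to the lowest FPKM among the 6 was 2.95 and 2.40 in WT LZ, 10.9 and 10.2 in WT PD, 2.69 and 2.32 in Cnot4-null LZ, and 5.72 and 3.34 in Cnot4-null PD. The spread was widest in WT PD, and Cnot4-null PD lay between WT PD and the LZ libraries. Psmc2 had FPKM of 84.3 and 101 in WT LZ, 260.5 and 238 in WT PD, 112 and 97.6 in Cnot4-null LZ, and 195 and 89.9 in Cnot4-null PD. It rose in WT (log2 fold change 1.42 ± 0.34, adjusted p = 0.00909), a call lost without WT LZ replicate 1 or WT PD replicate 1 (log2 fold change from 1.30 to 1.36, adjusted p from 0.0588 to 0.0665), and was not called at PD (log2 fold change -0.91 ± 0.34, adjusted p = 0.0588). Psmc3 had FPKM of 248 and 233 in WT LZ, 644 and 557 in WT PD, 246 and 226 in Cnot4-null LZ, and 469 and 220.2 in Cnot4-null PD. It rose in WT (log2 fold change 1.31 ± 0.34, adjusted p = 0.012) and was not called at PD (log2 fold change -0.90 ± 0.34, adjusted p = 0.0569). The rise was lost without WT LZ replicate 1, WT LZ replicate 2 or WT PD replicate 1 (log2 fold change from 1.21 to 1.36, adjusted p from 0.0588 to 0.076). For both genes replicate 1 of Cnot4-null PD stood above the LZ libraries, and replicate 2 lay within their range for Psmc2 and just below it for Psmc3. With the same median, and with the same summed FPKM, both were called lower at PD, as they were without Cnot4-null PD replicate 1, and Psmc3 with a replicate block.

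Psmc6, with the highest log2 fold change of the ATPases at PD, had FPKM of 208 and 204 in WT LZ, 59.0 and 54.6 in WT PD, 301 and 227 in Cnot4-null LZ, and 127 and 86.0 in Cnot4-null PD. WT PD was lowest and did not overlap with Cnot4-null PD. Psmc6 fell in both genotypes (log2 fold change -1.84 ± 0.24, adjusted p = 0.000507 in WT and log2 fold change -1.31 ± 0.24, adjusted p = 0.00474 in Cnot4-null) and was higher in Cnot4-null at PD (log2 fold change 0.87 ± 0.24, adjusted p = 0.021), a call lost with the same median or only the libraries compared (log2 fold change from 0.45 to 0.87, adjusted p from 0.0639 to 0.0679) and without Cnot4-null PD replicate 1, WT PD replicate 1 or WT PD replicate 2 (log2 fold change from 0.59 to 0.93, adjusted p from 0.0511 to 0.112). The interaction was called for 0 of the 6 ATPases, against 26.0% of all genes higher and 3.97% lower. For the ATPases this depended on the model. Psmc2 and Psmc3 were called lower with the same median (-1.53 and -1.31, adjusted p = 0.0285 and 0.0398) and without Cnot4-null PD replicate 1 (-1.64 and -1.41, adjusted p = 0.00576 and 0.0054), and Psmc6 higher with quantile normalization (0.66, adjusted p = 0.0488) and with the same summed FPKM (0.71, adjusted p = 0.041).

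The non-ATPases comprise base subunits with ubiquitin receptors (Psmd1, Psmd2 and Psmd4), 8 lid subunits with the deubiquitinase Psmd14, and 3 chaperones that help assemble the base (Psmd5, Psmd9 and Psmd10). In WT, 7 of the 14 fell (Psmd1, Psmd3, Psmd5, Psmd10, Psmd11, Psmd13 and Psmd14) and Psmd7 and Psmd8 rose. Of all genes 36.2% fell in WT and 21.6% rose. In Cnot4-null 5 fell (Psmd1, Psmd5, Psmd6, Psmd11 and Psmd14) and 0 rose, against 18.2% and 27.8% of all genes. At PD, the chaperones Psmd5 and Psmd10 were called higher in Cnot4-null and the lid subunits Psmd6 and Psmd8 lower, and 10 were not called. Of all genes 41.6% were called higher at PD and 11.5% lower. The numbers of alternatives in which a WT call was lost were 3 for Psmd3, 2 for Psmd7, 8 for Psmd8, 4 for Psmd13 and 4 for Psmd14, and for Cnot4-null 2 for Psmd1, 9 for Psmd6 and 1 for Psmd14. In WT, falls were gained in 5 for Psmd2 and 1 for Psmd12, and rises in 4 for Psmd9 and 1 for Psmd4. In Cnot4-null, falls were gained in 1 for Psmd2, 1 for Psmd10 and 2 for Psmd12, and a rise in 1 for Psmd8. Psmd3 gained a call at PD in 4 and Psmd13 in 2, both higher in Cnot4-null. At PD the counts of this class were 2 higher and 6 lower with the same median, with Psmd2, Psmd7, Psmd9 and Psmd14 added, 0 and 2 with quantile normalization, and 3 and 2 with the same summed FPKM. In that order 34.7%, 17.8% and 42.1% of all genes were called higher, and 22.8%, 25.6% and 11.5% lower.

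The chaperone Psmd10, known as gankyrin, is encoded on the X chromosome (chrX:137482968-137491267 of mm9). Its FPKM was 18.3 and 30.1 in WT LZ, 1.53 and 1.03 in WT PD, 19.7 and 26.3 in Cnot4-null LZ, and 21.6 and 7.40 in Cnot4-null PD. WT PD was close to 1 while all other libraries were above 7, with Cnot4-null PD replicate 1 within the LZ range and replicate 2 below it. Psmd10 fell in WT (log2 fold change -3.43 ± 0.48, adjusted p = 0.000654) and was higher in Cnot4-null at PD (log2 fold change 2.60 ± 0.48, adjusted p = 0.00423), a call lost with quantile normalization (log2 fold change 1.41, adjusted p = 0.0872). The chaperone Psmd5 had FPKM of 58.1 and 80.5 in WT LZ, 10.3 and 8.81 in WT PD, 55.6 and 68.9 in Cnot4-null LZ, and 26.5 and 21.2 in Cnot4-null PD. The order was WT PD, Cnot4-null PD and LZ, with no overlap between these 3 ranges. It fell in both genotypes (log2 fold change -2.72 ± 0.24, adjusted p = 9.1e-05 in WT and log2 fold change -1.35 ± 0.24, adjusted p = 0.00416 in Cnot4-null) and was higher in Cnot4-null at PD (log2 fold change 1.23 ± 0.24, adjusted p = 0.00558), a call lost with quantile normalization (log2 fold change 0.64, adjusted p = 0.0851) and without WT PD replicate 2 (log2 fold change 1.13, adjusted p = 0.051).

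The lid subunit Psmd6 had FPKM of 172 and 185 in WT LZ, 202 and 193 in WT PD, 239 and 177 in Cnot4-null LZ, and 135 and 60.7 in Cnot4-null PD. Cnot4-null PD libraries were the lowest, replicate 2 more so. Psmd6 fell in Cnot4-null (log2 fold change -1.18 ± 0.36, adjusted p = 0.0321) and was lower in Cnot4-null at PD (log2 fold change -1.11 ± 0.36, adjusted p = 0.0344). The stage call was lost with no filter or only the libraries compared (log2 fold change -1.18, adjusted p from 0.0963 to 0.126) and with each library but Cnot4-null PD replicate 1 left out in turn (log2 fold change from -1.39 to -0.61, adjusted p from 0.0615 to 0.176). The PD call was lost with no filter or only the libraries compared (log2 fold change -1.11, adjusted p from 0.0998 to 0.120) and with each library but Cnot4-null PD replicate 1 left out in turn (log2 fold change from -1.15 to -0.55, adjusted p from 0.059 to 0.141). Psmd8 had FPKM of 156 and 182 in WT LZ, 322 and 302 in WT PD, 160.4 and 139 in Cnot4-null LZ, and 233 and 125 in Cnot4-null PD, with Cnot4-null PD below WT PD and replicate 2 below all LZ libraries. Its call at PD (log2 fold change -0.87 ± 0.30, adjusted p = 0.0427) was lost with no filter, no trend or only the libraries compared (log2 fold change -0.87, adjusted p from 0.0558 to 0.145) and with each library but Cnot4-null PD replicate 1 left out in turn (log2 fold change from -0.91 to -0.42, adjusted p from 0.0726 to 0.167). Its rise in WT (log2 fold change 0.88 ± 0.30, adjusted p = 0.0361) was lost with no filter or quantile normalization (log2 fold change from 0.35 to 0.88, adjusted p from 0.0865 to 0.0918) and with each library but Cnot4-null PD replicate 1 and Cnot4-null PD replicate 2 left out in turn (log2 fold change from 0.77 to 0.99, adjusted p from 0.066 to 0.171).

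The activators bind the ends of the core in place of the regulatory particle. Psme1 and Psme2 encode the subunits of the cytosolic interferon-inducible ring PA28, Psme3 the nuclear ring PA28 gamma, and Psme4 the single chain PA200. In mm9 Psme1 and Psme2 lie near each other at chr14:56196960-56200366 and chr14:56206278-56209950, on the plus and minus strands. Psme3 lies at chr11:101177527-101184851 and Psme4 at chr11:30671726-30780361, both on the plus strand. Psme2 has a close copy, Psme2b, that has no entry of its own in the values, so that reads matching both copies would not count as unique and the level of Psme2 is uncertain.

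Psme1 FPKM was 173 and 152 in WT LZ, 4.31 and 2.12 in WT PD, 135 and 129 in Cnot4-null LZ, and 126 and 134 in Cnot4-null PD. Psme2 FPKM was 202 and 216 in WT LZ, 15.8 and 3.11 in WT PD, 185 and 198 in Cnot4-null LZ, and 202 and 178 in Cnot4-null PD. In WT PD both were nearly gone, while the 2 Cnot4-null PD libraries stood at the level of the LZ libraries. Psme3 FPKM was 102 and 74.5 in WT LZ, 19.0 and 19.7 in WT PD, 81.6 and 73.2 in Cnot4-null LZ, and 61.7 and 70.8 in Cnot4-null PD, again with WT PD alone at the bottom and Cnot4-null PD just below the LZ libraries. The 3 genes fell in WT (log2 fold change -5.32 ± 0.26, -4.66 ± 0.56 and -2.12 ± 0.21, adjusted p = 1.69e-05, 0.000319 and 0.000141). In Cnot4-null limma did not call a stage change for them (log2 fold change -0.02, -0.01 and -0.22, adjusted p = 0.959, 0.991 and 0.410). At PD they were higher in Cnot4-null (log2 fold change 5.01 ± 0.26, 4.52 ± 0.56 and 1.72 ± 0.21, adjusted p = 9.49e-05, 0.000849 and 0.000805). The calls of these 3 genes in WT, at PD and for the interaction held in all alternatives run.

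Psme4 followed Psma8 in direction, with FPKM of 32.2 and 26.0 in WT LZ, 102 and 95.5 in WT PD, 38.3 and 25.2 in Cnot4-null LZ, and 61.8 and 28.1 in Cnot4-null PD. WT PD was highest, Cnot4-null PD replicate 1 stood in between and replicate 2 lay within the LZ range. Psme4 rose in WT (log2 fold change 1.73 ± 0.38, adjusted p = 0.00572), was not called between stages in Cnot4-null (log2 fold change 0.41 ± 0.38, adjusted p = 0.394) except without Cnot4-null PD replicate 2 (log2 fold change 0.97, adjusted p = 0.0452), and was lower in Cnot4-null at PD (log2 fold change -1.22 ± 0.38, adjusted p = 0.03). The call at PD was lost with no filter or only the libraries compared (log2 fold change -1.22, adjusted p from 0.0916 to 0.0936) and with each library but Cnot4-null LZ replicate 1, Cnot4-null LZ replicate 2 and Cnot4-null PD replicate 1 left out in turn (log2 fold change from -1.27 to -0.67, adjusted p from 0.0541 to 0.131). The interaction was not called (log2 fold change -1.32 ± 0.53, adjusted p = 0.1004), so a difference in the stage change was not shown for Psme4. It was called without Cnot4-null PD replicate 1 (-1.87, adjusted p = 0.0164), with the same median (-1.76, adjusted p = 0.0247), and with a replicate block (-1.32, adjusted p = 0.0494), over a range of adjusted p from 0.0164 to 0.273 in all alternatives.

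Relative to the summed FPKM of Psme1, Psme2 and Psme3 in the same library, Psme4 came to 6.76 and 5.88 percent in WT LZ, 260.3 and 384 in WT PD, 9.54 and 6.29 in Cnot4-null LZ, and 15.8 and 7.31 in Cnot4-null PD. In WT PD it exceeded the other activators together, and in the other 3 groups it was a small part of them. WT PD did not overlap with another group, and the exact two-sided permutation test gave p = 0.333 against WT LZ and against Cnot4-null PD, the smallest possible. Of all 4 activators, Psme4 made up 6.33 and 5.56 percent in WT LZ, 72.2 and 79.3 in WT PD, 8.71 and 5.91 in Cnot4-null LZ, and 13.7 and 6.82 in Cnot4-null PD, and Cnot4-null PD replicate 2 lay within the range of the LZ libraries.

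**Figure D4:**
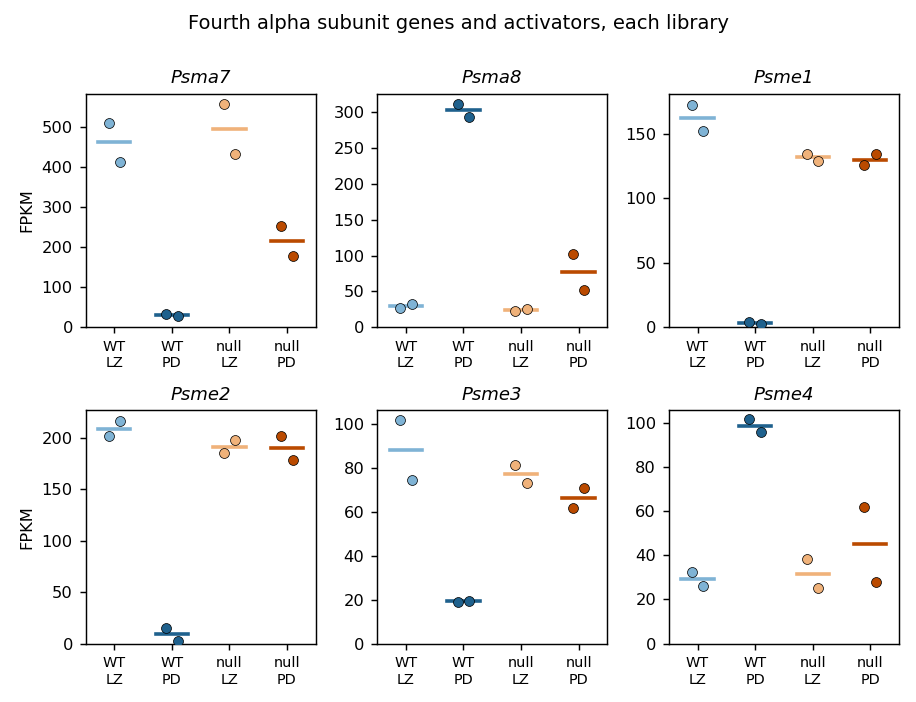
FPKM of Psma7, Psma8 and the 4 activators in each library, on linear axes that start at 0. Points are libraries and lines are means of 2. WT PD is low for Psma7 (33.5 and 27.9), Psme1, Psme2 and Psme3 and high for Psma8 (312 and 294) and Psme4 (102 and 95.5).

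The promoters of Psme1, Psme2 and Psma7, which fell in WT, and of Psme4, which rose, are shown for comparison of genes that moved in opposite directions. They are the 250 bases before the start of each gene in RefSeq on GRCm38.p6, a later build than the mm9 of the files, at chr2:180042465-180042714 on the minus strand for Psma7, chr14:55578244-55578493 on the plus strand for Psme1, chr14:55591102-55591351 on the minus strand for Psme2 and chr11:30771525-30771774 on the plus strand for Psme4. For Psme2, which has 2 starts in the table, the first was taken. Of the 48 genes 40 were matched to an entry, and Psma8, Psmb1, Psmb2, Psmb7, Psmc3, Psmd3, Psmd7 and Psmg2 were not. The match left out the genes of a chromosome, so a gene missing here may still have an entry. Capitals mark matches on either strand to CCAAT or CCGGAAG, and TGACNNNGC had no match in these 4.
Psma7: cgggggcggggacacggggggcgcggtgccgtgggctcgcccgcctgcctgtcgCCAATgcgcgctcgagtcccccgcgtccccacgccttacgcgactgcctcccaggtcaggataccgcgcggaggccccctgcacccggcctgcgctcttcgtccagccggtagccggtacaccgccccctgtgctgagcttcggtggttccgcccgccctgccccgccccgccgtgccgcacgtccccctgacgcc
Psme1: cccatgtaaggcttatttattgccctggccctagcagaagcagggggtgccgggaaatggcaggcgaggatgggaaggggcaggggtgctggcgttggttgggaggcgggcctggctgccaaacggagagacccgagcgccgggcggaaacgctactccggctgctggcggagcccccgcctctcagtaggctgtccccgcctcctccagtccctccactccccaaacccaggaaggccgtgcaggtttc
Psme2: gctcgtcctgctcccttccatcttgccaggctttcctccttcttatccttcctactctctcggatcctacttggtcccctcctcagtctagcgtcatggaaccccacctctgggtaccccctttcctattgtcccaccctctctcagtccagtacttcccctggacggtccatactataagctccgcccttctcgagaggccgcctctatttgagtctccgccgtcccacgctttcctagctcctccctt
Psme4: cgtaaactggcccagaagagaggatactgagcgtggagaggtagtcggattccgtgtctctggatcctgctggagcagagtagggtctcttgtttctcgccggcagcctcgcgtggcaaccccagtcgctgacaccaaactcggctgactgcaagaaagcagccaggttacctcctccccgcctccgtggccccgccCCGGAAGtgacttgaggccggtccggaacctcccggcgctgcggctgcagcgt
Psma7 held CCAAT and Psme4 held CCGGAAG, both on the plus strand of the gene, and Psme1 and Psme2 held none of the 3 motifs in this window.

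CCGGAAG, a sequence bound by ETS family factors, was in 11 of the 40 proteasome promoters (27.5%) and in 6.91% of all 32851 promoters of this length. Besides Psme4 these were Psmd4, Psmc2, Psmd11, Psme3, Psmd12, Psmc1, Psmd6, Psmc6, Psmd2 and Psmg1, which include genes that rose and genes that fell in WT. CCAAT was in 14 of 40 (35.0%) and in 33.8% of all promoters. TGACNNNGC, the core of the antioxidant response element, was in 5 of 40 (12.5%) and in 10.2% of all. The 40 are counted by gene and the 32851 by start, for genes tested or not, so these shares compare unlike sets. A match is a description of letters and not a site.

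Psmf1, the proteasome inhibitor PI31, had FPKM of 10.9 and 15.4 in WT LZ, 32.7 and 29.6 in WT PD, 18.5 and 11.7 in Cnot4-null LZ, and 40.3 and 26.5 in Cnot4-null PD. PD was above LZ in both genotypes without overlap, and the genotypes overlapped at each stage. It rose in WT (log2 fold change 1.20 ± 0.31, adjusted p = 0.0126) and in Cnot4-null (log2 fold change 1.10 ± 0.31, adjusted p = 0.0247) and was not called at PD (log2 fold change 0.07 ± 0.31, adjusted p = 0.860). The rise in WT was lost without WT LZ replicate 1, WT PD replicate 1 or WT PD replicate 2 (log2 fold change from 0.97 to 1.27, adjusted p from 0.0558 to 0.0867). The rise in Cnot4-null was lost with no filter or only the libraries compared (log2 fold change 1.10, adjusted p from 0.0658 to 0.0917) and without Cnot4-null LZ replicate 2, Cnot4-null PD replicate 1, WT PD replicate 1 or WT PD replicate 2 (log2 fold change from 0.79 to 1.10, adjusted p from 0.0534 to 0.141).

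The 4 assembly chaperones Psmg1 to Psmg4 help build the alpha ring. Psmg1 and Psmg4 fell in WT and Psmg1 and Psmg3 in Cnot4-null. The fall of Psmg1 was lost in 6 alternatives in WT and in 7 in Cnot4-null. Psmg4 FPKM was 259 and 189.7 in WT LZ, 101 and 93.3 in WT PD, 224 and 196 in Cnot4-null LZ, and 195 and 143 in Cnot4-null PD. WT PD was lowest and did not overlap with Cnot4-null PD. It was called higher in Cnot4-null at PD (log2 fold change 0.78 ± 0.24, adjusted p = 0.0285), which was lost with no filter, the same median or only the libraries compared (log2 fold change from 0.35 to 0.78, adjusted p from 0.0556 to 0.143) and with each library but WT LZ replicate 1, WT LZ replicate 2 and Cnot4-null PD replicate 2 left out in turn (log2 fold change from 0.56 to 0.83, adjusted p from 0.0506 to 0.137). Psmg3 FPKM was 15.2 and 21.8 in WT LZ, 15.5 and 12.9 in WT PD, 18.6 and 25.7 in Cnot4-null LZ, and 8.79 and 11.6 in Cnot4-null PD. It was lowest in Cnot4-null PD but not called at PD (log2 fold change -0.45 ± 0.28, adjusted p = 0.200). It was called lower there with quantile normalization (log2 fold change -1.19, adjusted p = 0.0225). Its fall in Cnot4-null (log2 fold change -1.04 ± 0.28, adjusted p = 0.0193) was lost with only the libraries compared (log2 fold change -1.04, adjusted p = 0.0732) and without Cnot4-null LZ replicate 2 or Cnot4-null PD replicate 1 (log2 fold change from -0.86 to -0.82, adjusted p from 0.0807 to 0.113).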

How the data were processed

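The authors mapped trimmed reads to mm9 (TopHat2 2.1.1), retained unique ones, and made the deposited FPKM with Cufflinks 2.2.1, by the submitters' processing notes and the methods. The methods give Smart-Seq2 on sorted cells and the labels a TruSeq library after Trizol extraction, and which was used is not settled here. Genes above 1 FPKM in at least 1 library were tested on log2(FPKM + 1) with limma 3.58.1 in R 4.3.3, with 4 group means, 4 contrasts and their interaction, a trend in eBayes and Benjamini-Hochberg adjustment over 15899 genes. All tests were two-sided. Figures and shares were made with Python 3.11.15, pandas 2.3.3 and matplotlib 3.10.9. Positions are from GENCODE vM1. Values in each library were given for Psma7, Psma8, Psme4, Psmb8 to Psmb11 and the genes with the highest and lowest fold change at PD in each class (Psma8 counted with the alpha ring), and other genes named were chosen after their values were seen. The alternatives were no filter, a mean FPKM of at least 5, a pseudocount of 0.1, 3 scalings, no trend, only the libraries compared, a replicate block, and each library left out. The members and lists were chosen with earlier results of these data known.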

Additional observations from a re-analysis of the deposited data

Results flagged for a closer look

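The change from LZ to PD differed between the genotypes, by limma's interaction of genotype and stage, in 11 of the 48 proteasome genes. In all genes tested it was called higher in 26.0% and lower in 3.97%, and in the 48 genes 10 were higher and 1 lower. With the same median the counts were 9 and 8, with quantile normalization 12 and 1, with the same summed FPKM 15 and 2, and with no filter 4 and 0. Of all genes 20.6%, 9.74%, 26.0% and 12.8% were then called higher, and 11.97%, 12.4%, 4.39% and 1.69% lower. With each library left out the counts ranged from 4 to 11 higher and from 0 to 9 lower, and the shares of all genes from 10.1% to 36.8% and from 0.333% to 13.04%. Log2 differences were 5.30 for Psme1, 4.65 for Psme2 and 1.90 for Psme3 (adjusted p = 0.000768, 0.00676 and 0.00509). Psma7 differed by 2.66 (adjusted p = 0.0031) and Psma8, the gene that was called lower, by -1.71 (adjusted p = 0.0268). The inducible Psmb8, Psmb9 and Psmb10 differed by 2.66, 2.51 and 2.69 (adjusted p = 0.0191, 0.0215 and 0.0132), where the values of Psmb8 and Psmb9 depend on the pseudocount because libraries were listed at 0 (with a pseudocount of 0.1 they are 4.86 and 5.21). Psmb8 and Psmb9 also passed the filter through Cnot4-null libraries only. With a mean FPKM of at least 5, where they were not tested, 8 of 45 genes were called higher and 1 lower (17.8% and 2.22%, against 29.7% and 6.01% of all genes). The base chaperones Psmd10 and Psmd5 differed by 2.65 and 1.37 (adjusted p = 0.0264 and 0.0245), and Psmb3 by 1.24 (adjusted p = 0.0304). With each library left out in turn the calls of Psma7, Psme1, Psme2 and Psme3 held. Those of Psma8, Psmb3, Psmb8, Psmb9, Psmb10, Psmd5 and Psmd10 were each lost without at least 1 library, with adjusted p up to 0.123, and all 7 with no filter. With quantile normalization those of Psmb8, Psmb9, Psmb10, Psmd5 and Psmd10 were lost (adjusted p up to 0.232), Psmd5 also with the same median and Psmb8 with a pseudocount of 0.1. The sums of Leydig, macrophage, spermatogonial and spermatid markers were also higher in Cnot4-null than in WT at PD. Of the stage markers, 4 of the 5 early ones were called higher at PD and 2 of the 8 late ones lower. The part of all these markers in these differences was not tested.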

How the results depend on the processing

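With each library left out in turn, the lone library of a group was assumed to vary like the others. The shares of all genes called also moved with the library left out, so the ranges below are not a property of the 48 genes alone. The number of proteasome genes called then ranged from 2 to 9 higher and from 20 to 31 lower for PD against LZ in WT, from 3 to 8 and from 7 to 27 in Cnot4-null, and from 8 to 19 and from 1 to 8 for Cnot4-null against WT at PD, and was 0 at LZ. The interaction was called from 4 to 11 higher and from 0 to 9 lower. That of Psma8 ranged from -2.19 to -1.23 and that of Psme4 from -1.87 to -0.76. The Psma8 share ranged from 22.7 to 28.7 percent in Cnot4-null PD, from 90.3 to 91.3 in WT PD, from 3.76 to 5.42 in Cnot4-null LZ and from 5.03 to 7.18 in WT LZ. With a mean FPKM of at least 5, 45 of the 48 were tested, without Psmb8, Psmb9 and Psmb11. The count for Cnot4-null PD against LZ became 2 higher with a mean FPKM of at least 5 (4.44%, against 27.3% of all genes). With only the libraries compared it became 2 higher and 4 lower (4.17% and 8.33%, against 16.9% and 7.94% of all genes). For the genotypes at PD it became 9 higher and 13 lower with the same median (against 34.7% and 22.8% of all genes). The count lower there became 7 with the same summed FPKM, 1 with only the libraries compared, and 1 with no filter (against 11.5%, 5.67% and 5.53% of all genes). The interaction of Psma8 with no filter was -1.71 (adjusted p = 0.0783), no longer called, and that of Psme4 was called with the same median (-1.76). The causes were not tested. Psmb11 at PD reversed with quantile normalization (-0.91), and the cause was not tested.

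The deviations of libraries with the same number correlated at 0.194 for Cnot4-null LZ with Cnot4-null PD and at -0.0651 to 0.0826 for other pairs of groups, and the numbers were not taken to pair the samples. With a replicate block the counts were 7 higher and 27 lower in WT (14.6% and 56.3%, against 21.5% and 35.6% of all genes). They were 4 and 20 in Cnot4-null (8.33% and 41.7%, against 27.2% and 17.6% of all genes). At PD they were 16 and 5 (33.3% and 10.4%, against 40.6% and 11.5% of all genes), and at LZ 0 (against 0.0755% and 0.0252%). The interaction of Psme4 was called with this block (-1.32, adjusted p = 0.0494). Of 3320 values of the 48 genes and Cnot4 in the 4 comparisons over all alternatives, 201 lost their call and 101 gained one. A further 1, that of Psmb11 at PD with quantile normalization, was called in the reverse direction. The other 3017 stayed on their side of the threshold, 132 of these uncalled with the sign turned. For the interaction 49 of 781 lost and 37 gained a call. Duplicates, the lack of read counts and the choice of scaling limit the comparison at PD.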

Other observations

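Of the summed FPKM of a library, the 48 genes together made up 1.33 and 1.43 percent in WT LZ, 0.824 and 0.768 in WT PD, 1.36 and 1.37 in Cnot4-null LZ, and 0.976 and 0.859 in Cnot4-null PD. The shares were lower in PD than in LZ in both genotypes, and at PD both Cnot4-null libraries were above both WT libraries, by a small margin, which the exact two-sided permutation test of 2 against 2 could not call (p = 0.333, its smallest).

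The spread of the subunits of a ring was taken as the standard deviation of log2 FPKM. Over the 6 ATPases it was 0.58 and 0.508 in WT LZ, 1.27 and 1.29 in WT PD, 0.544 and 0.554 in Cnot4-null LZ, and 0.846 and 0.61 in Cnot4-null PD, and over the 7 beta ring genes 0.415 and 0.321 in WT LZ, 0.583 and 0.585 in WT PD, 0.447 and 0.319 in Cnot4-null LZ, and 0.322 and 0.246 in Cnot4-null PD. In both the WT PD libraries had the highest values and did not overlap with another group. In the alpha ring the order depends on the genes counted. Over Psma1 to Psma7 it was 0.557 and 0.419 in WT LZ, 1.25 and 1.32 in WT PD, 0.575 and 0.564 in Cnot4-null LZ, and 0.844 and 0.59 in Cnot4-null PD, again highest in WT PD. Over Psma1 to Psma6 alone it was 0.543 and 0.445 in WT LZ, 0.865 and 0.857 in WT PD, 0.587 and 0.588 in Cnot4-null LZ, and 0.924 and 0.645 in Cnot4-null PD, and Cnot4-null PD replicate 1 was highest. With Psma8 in place of Psma7 it was 1.43 and 1.35 in WT LZ, 0.826 and 0.813 in WT PD, 1.65 and 1.49 in Cnot4-null LZ, and 0.979 and 0.919 in Cnot4-null PD, and WT PD was lowest.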
